A study of Mus musculus with 7 samples.

Results

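The genomic neighbourhood of Hhex on mouse chromosome 19 was examined in ATAC-Seq peak lists of alpha, beta, and delta cells, together with its neighbours Ide, Kif11, and Exoc6. Members were the distinct peaks overlapping the GENCODE gene bodies of these 4 genes or the 50 kb on either side. They lie in 2 windows of 506 kb in all, between 37218743 and 37734059 on GRCm38 (mm10). The 7 lists held 214 such peaks of 1190565 distinct peaks. ATAC-Seq cuts accessible DNA with a transposase, so that a peak marks a stretch where more cuts were found than in the surrounding DNA of the same library.

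There were 2 alpha, 3 beta, and 2 delta libraries, each sorted by FACS from islets of healthy mice that were pooled by sex, so that a library is a pool of animals. Every mouse carried mIns1-H2b-mCherry, which labels beta cell nuclei from an Ins1 promoter, and the Cre-dependent Rosa-LSL-YFP reporter, crossed to Gcg-Cre or to Sst-Cre for alpha and delta cells. YFP stays on once Cre has acted, so it also marks cells that expressed glucagon or somatostatin earlier. Cells positive for both reporters were left out of the sort. The study compared cell types sorted from the same animals, so beta libraries can share animals with alpha or delta libraries, and which ones do is not given by the labels, nor are the ages of the mice.

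Hhex encodes a homeodomain transcription factor needed in the embryo for liver, foregut, and blood vessel development. In the islet it is a known factor of delta cells, which secrete somatostatin and restrain their alpha and beta neighbours. Ide encodes a metalloprotease that degrades insulin and other peptides, Kif11 a kinesin motor that pushes the poles of the mitotic spindle apart, and Exoc6 a subunit of the exocyst, the complex that tethers secretory vesicles to the plasma membrane. The matching human region is known from genetic studies of type 2 diabetes.

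The sequences below are those of the regions on which the results turn, each as 300 bases of the plus strand of GRCm38 around the summit of the library with the best rank. Capitals mark matches on either strand to TAATTA (a homeodomain core), TGTTTAC (forkhead), CAGATG (an E-box), AGATAA (bound by GATA factors), TGCTGAC (by Maf factors), TGACGTCA (by CREB), or GGGCGG (a GC box). The Hhex window was moved by 121 bases to end just before the annotated 5' end of the gene. The last window was chosen after its values were seen, because its region was called in all 3 beta libraries and in no other.

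Hhex 5' region, chr19:37434510-37434809: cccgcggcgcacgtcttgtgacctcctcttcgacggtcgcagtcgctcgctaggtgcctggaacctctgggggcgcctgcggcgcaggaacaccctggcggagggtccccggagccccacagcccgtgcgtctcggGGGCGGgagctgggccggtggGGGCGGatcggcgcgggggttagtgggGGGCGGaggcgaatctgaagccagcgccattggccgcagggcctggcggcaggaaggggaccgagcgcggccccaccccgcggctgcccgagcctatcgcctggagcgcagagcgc
Delta selective region downstream of Hhex, chr19:37442658-37442957: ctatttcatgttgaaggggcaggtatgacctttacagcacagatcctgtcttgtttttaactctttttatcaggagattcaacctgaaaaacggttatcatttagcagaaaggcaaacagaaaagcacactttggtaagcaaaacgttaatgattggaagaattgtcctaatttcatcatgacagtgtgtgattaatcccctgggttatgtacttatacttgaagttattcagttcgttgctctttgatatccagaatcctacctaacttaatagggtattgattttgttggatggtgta
Delta selective region in an Exoc6 intron, chr19:37612913-37613212: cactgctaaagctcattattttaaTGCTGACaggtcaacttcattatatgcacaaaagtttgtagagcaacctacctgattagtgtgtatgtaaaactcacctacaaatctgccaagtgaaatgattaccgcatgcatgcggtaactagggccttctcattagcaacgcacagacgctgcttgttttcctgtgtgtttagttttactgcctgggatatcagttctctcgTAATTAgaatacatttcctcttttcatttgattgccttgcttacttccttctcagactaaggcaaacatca
Alpha and delta region in an Exoc6 intron, chr19:37668728-37669027: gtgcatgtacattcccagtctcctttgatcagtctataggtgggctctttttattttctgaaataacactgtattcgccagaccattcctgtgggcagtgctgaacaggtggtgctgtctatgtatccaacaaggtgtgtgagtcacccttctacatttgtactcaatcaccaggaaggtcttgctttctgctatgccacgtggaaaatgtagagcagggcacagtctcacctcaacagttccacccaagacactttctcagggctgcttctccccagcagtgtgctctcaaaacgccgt
Alpha and delta region nearer to the Exoc6 promoter, chr19:37561597-37561896: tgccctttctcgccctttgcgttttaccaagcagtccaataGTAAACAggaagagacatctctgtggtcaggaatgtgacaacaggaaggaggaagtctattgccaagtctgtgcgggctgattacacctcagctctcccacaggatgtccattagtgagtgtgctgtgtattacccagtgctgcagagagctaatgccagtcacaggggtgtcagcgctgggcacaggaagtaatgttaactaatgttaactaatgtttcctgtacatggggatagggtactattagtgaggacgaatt
Beta selective region in an Exoc6 intron, chr19:37604260-37604559: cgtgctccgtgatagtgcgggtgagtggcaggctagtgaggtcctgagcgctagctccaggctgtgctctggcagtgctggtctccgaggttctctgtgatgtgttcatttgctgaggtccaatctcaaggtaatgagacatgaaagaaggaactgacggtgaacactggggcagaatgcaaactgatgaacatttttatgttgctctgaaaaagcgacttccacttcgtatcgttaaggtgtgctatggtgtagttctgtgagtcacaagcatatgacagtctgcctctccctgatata

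The Hhex 5' window was rich in G and C, at 75.3%, and held 3 matches to the GC box, all on the plus strand. The median over the 300-base windows of all 133698 merged regions of at least 2 libraries was 47.0% GC, and 13.7% of those windows held GGGCGG. The delta selective window in the Exoc6 intron, at 39.7% GC, held 1 match to TGCTGAC and 1 to TAATTA, which 6.5% and 8.2% of all windows held. The alpha and delta window nearer to the Exoc6 promoter, at 47.7% GC, held 1 match to TGTTTAC, on the minus strand, which 6.7% of all windows held. The other 3 windows, at 36.3% GC downstream of Hhex, 48.3% in the other alpha and delta region, and 49.3% in the beta selective region, held no match. Of the remaining letters searched, 25% of all windows held CAGATG, 15.0% AGATAA, and 0.7% TGACGTCA. No matches overlapped in these windows.

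The strength of a peak was read from its −log10 q, the authors' MACS2 value for that library alone, and a peak was called strong where it reached 2. Its rank is its place by −log10 p in its own list. Peaks of the locus with equal values held consecutive ranks in order of position, so the order among such ties carries no information. The lists were of unequal length, from 75860 distinct peaks in delta 2 to 518503 in beta 1, of which 54.9% and 5.0% were strong. The number of strong peaks in a list ran from 25903 to 38058 in the beta libraries and from 41683 to 52057 in the others. Peak lists hold no reads, so depth per region is unknown, and a missing peak means only that no peak was called. The paper lists fewer unique mapped reads for each beta library it kept than for either alpha library. Of its delta libraries, 1 lay above all kept beta libraries and 1 within their range. Whether read depth bears on the peak counts was not tested. For all 3 beta libraries, the list is named after a cell type other than beta, and the labels were followed. The names also carry lane codes, with both alpha libraries and beta 1 in lane 6 and beta 2, beta 3, and both delta libraries in lane 7. Alpha against delta and lane therefore cannot be told apart, while beta libraries were in both lanes. The cell type labels were checked against 5 delta markers, Hhex among them: 5 had a promoter peak, meaning one that reached within 1 kb of the 5' end, in both delta libraries, 4 in both alpha libraries, and 0 in 2 or more beta libraries. Sst itself had one in both delta libraries, ranked 130978 in delta 1 and 64898 in delta 2, and in beta 1, ranked 22879. It was strong in beta 1 only. Of 7 alpha markers, 7 had such a peak in both alpha, 4 in at least 2 beta, and 6 in both delta libraries, and Gcg itself had one in both alpha libraries, in no beta library, and in 1 delta library. Of 8 beta markers, 5 had it in at least 2 beta libraries, 4 in both alpha, and 5 in both delta libraries. Ins2 had it in 1 beta library, while Slc2a2 and G6pc2 had it in no library. Markers of other pancreatic cells were rarer, counted in at least 2 libraries of a cell type: 1 of 7 acinar markers in beta, 1 of 4 duct markers in each cell type, 1 of 4 immune markers in alpha, and 0 of 3 endothelial markers.

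At the promoter of Hhex, a peak was called in both alpha and both delta libraries and in beta 1, and none was called in beta 2 or beta 3. The 5' end of Hhex lies at 37434810 on the plus strand. The delta peaks had the best ranks, with their summits at −29 bp from the 5' end in delta 1 and at −39 bp in delta 2. In delta 1 the peak ranked 13828 of 158066, with a fold enrichment over local background of 8.41 and a −log10 q of 12.3. In delta 2 it ranked 23193 of 75860, with a fold enrichment of 5.70 and a −log10 q of 5.21. Both were strong.

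The alpha libraries had weaker peaks, and they did not share their position. In alpha 2 the summit lay 59 bp downstream of the 5' end, and the peak ranked 30542 with a fold enrichment of 4.86 and a −log10 q of 3.84. In alpha 1 no peak covered the 5' end. The peak counted for it lay further into the gene, from 37435312 to 37435652 with its summit 672 bp downstream, and ranked 44888 with a fold enrichment of 3.75 and a −log10 q of 2.16. Beta 1 had 3 weak peaks there, each with a fold enrichment of 1.8 and a −log10 q of 0.0774, and the one from 37434719 to 37434918 covered the 5' end. They ranked 251648, 251649, and 251650 of 518503. Measured against the length of each list, the peak ranked above 91.3% and 69.4% of the peaks of delta 1 and delta 2 and above 65.8% and 72.7% of those of alpha 1 and alpha 2, so that on this scale the 2 cell types overlapped. Strong promoter peaks thus stood in 4 of 4 alpha and delta libraries and in 0 of 3 beta libraries. Of 21951 protein-coding genes, 2.05% had strong peaks in both alpha, both delta, and no beta library, and 2.30% had peaks of any strength in both alpha, both delta, and 1 beta library.

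The promoters of Kif11 and Exoc6 had a peak in every library. Kif11, whose 5' end lies at 37376403, had a peak in all 7 libraries, strong in 6. Its −log10 q was 7.84 in alpha 1, 23.6 in alpha 2, 6.13 in beta 1, 1.82 in beta 2, 13.8 in beta 3, 14.1 in delta 1, and 8.96 in delta 2, so that the cell types overlapped. All 7 summits lay between −150 and −90 bp from the 5' end. The promoter of Exoc6, at 37550418, had a strong peak in all 7 libraries. Its −log10 q was 4.24 in alpha 1, 14.9 in alpha 2, 4.35 in beta 1, 3.04 in beta 2, 6.53 in beta 3, 6.76 in delta 1, and 6.50 in delta 2, and here too the cell types overlapped. The fold enrichment at Exoc6 ran from 4.24 to 9.52, and that at Kif11 from 3.39 to 13.6. Such a peak in all 7 libraries was found for 41.5% of protein-coding genes.

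Ide had no promoter peak at its GENCODE 5' end, 37337852 on the minus strand, in any of the 7 libraries, as was the case for 17.3% of protein-coding genes. Its RefSeq start lies elsewhere, at 37334544, and there only beta 1 had a peak, of rank 476424 and a −log10 q of 0.0774. Around the 5 annotated transcript starts of Ide, alpha 1, beta 1, and beta 3 had peaks, none of which was strong; the best was that of beta 3, with a −log10 q of 1.43.

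**Figure D1:**
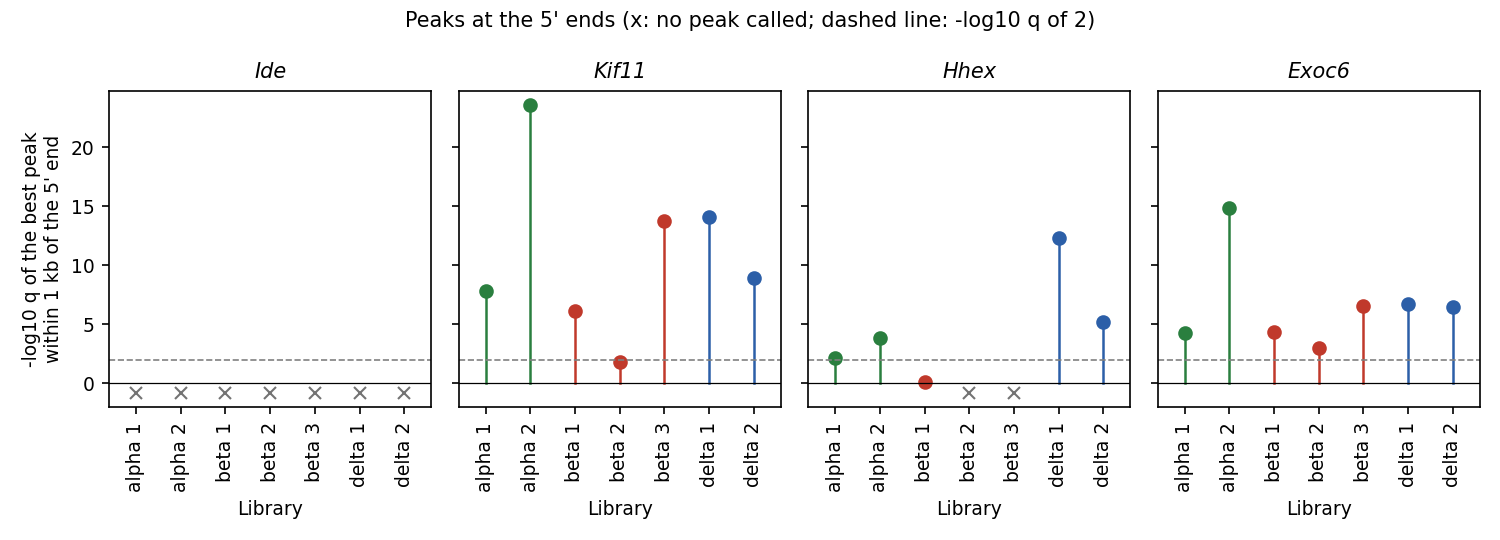
Height (−log10 q) of the best promoter peak of each gene (within 1 kb), by library, with alpha in green, beta in red, and delta in blue; a cross marks a library without a peak and the dashed line a −log10 q of 2. Kif11 and Exoc6 have a peak in all 7 libraries and Ide in none, while for Hhex the values run from 2.16 to 12.3 in alpha and delta and reach 0.0774 in beta 1 alone of the beta libraries.

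Cyp26c1 and Cyp26a1, which encode retinoic acid hydroxylases, follow Exoc6, and neither had a strong promoter peak. Cyp26c1 had a weak promoter peak in alpha 2, with a −log10 q of 1.02. For Cyp26a1 such peaks stood in alpha 1 and delta 1, at 1.13 and 1.87, and delta 1 had another from 37697876 to 37698075, at 0.951. Slightly further out, 1.14 kb upstream of Cyp26a1, the region from 37696404 to 37696656 was called in alpha 2 and both delta libraries, at 2.19, 2.88, and 1.22. The non-coding gene AC137605.3, whose 5' end lies 30.4 kb downstream of that of Hhex, had a strong peak in alpha 1, at a −log10 q of 6.53, and a weak one in beta 1.

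The genes whose promoter peaks ranked most like those of Hhex over the 7 libraries were 4833427G06Rik, Nostrin, Cd302, Cer1, and Itgb3. Likeness was the Euclidean distance of the log10 ranks, set to 50000 where the rank was lower or no peak was called, and their distances were 0.119, 0.131, 0.137, 0.16, and 0.161. Cer1 encodes a secreted inhibitor of nodal and BMP signals, and Itgb3 an integrin subunit. At Cer1, peaks ranked 46495 and 24679 in alpha, 314697 in beta 1, and 16622 and 18317 in delta. At Itgb3, they ranked 51309 and 26164 in alpha and 18880 and 24995 in delta, and no beta library had a peak. Of the 5, Nostrin had a peak in 1 beta library, Cd302 in 2, and 4833427G06Rik in none.

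Promoter peaks were also counted in the groups to which the members belong by function. All 9 exocyst subunits listed, Exoc6 included, had a promoter peak in at least 2 libraries of each cell type. Of 7 M16 metallopeptidases, the family of Ide, 6 had one in each cell type, and Ide was the exception. Of 19 spindle kinesins and mitotic regulators with Kif11, 17 had one in alpha cells, 18 in beta cells, and 16 in delta cells. Of 19 foregut and liver factors, a list that includes Hhex itself and its partner factors, 15 had one in alpha cells, 12 in beta cells, and 14 in delta cells. Over all 21951 protein-coding genes, 12457 had a peak in both alpha, 12308 in at least 2 beta, and 11867 in both delta libraries.

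Across the whole locus, alpha and delta libraries carried the same range of strong peaks, and the beta libraries carried fewer. There were 15 and 12 strong peaks in alpha 1 and alpha 2, 3, 3, and 8 in beta 1, beta 2, and beta 3, and 15 and 12 in delta 1 and delta 2. The mean of the beta libraries was 4.67 ± 2.89 (SD, n = 3), and those of alpha and of delta cells were each 13.5 ± 2.12 (SD, n = 2). All 3 beta libraries lay below the other 4. A difference between the 3 cell types did not pass the exact permutation test over 210 assignments of the libraries (p = 0.0571, where the smallest p the design allows is 0.00952). The test treats libraries as independent, which shared animals would break. Delta against the other 5 libraries gave a difference of 5.30 peaks, with a two-sided exact permutation p of 0.381, where 0.0476 is the smallest p possible.

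Beta lists held fewer strong peaks in the whole genome as well, and the order of the groups was the same per list. Per 100000 strong peaks of a list, the locus held 28.8 and 24.5 in alpha, 11.6, 9.36, and 21 in beta, and 31.9 and 28.8 in delta libraries. When the genome was tiled in stretches as long as the locus, all 3 beta libraries lay below the other 4 in 9.58% of 5249 tiles. Within lane 6, the share was 26.6 on average in the 2 alpha libraries and 11.6 in beta 1. Within lane 7, it was 15.2 on average in 2 beta and 30.4 in 2 delta libraries. With libraries permuted only within their lane, which was added after the data were seen, the exact permutation p of the count over the 3 cell types was 0.0556, at 1 of 18 assignments the smallest possible.

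When all peaks were counted, the long list of beta 1 dominated. It had 84 peaks in the locus, of which 3 were strong, against 29 and 21 in alpha, 8 and 18 in the other beta libraries, and 31 and 23 in delta. Per 100000 peaks of the list these were 22.1 and 18.8 in alpha, 16.2, 8.78, and 17.3 in beta, and 19.6 and 30.3 in delta libraries. Peaks spread evenly over the genome would give 18.6. The 3 cell types were not separated beyond the spread between libraries in this share (exact permutation p = 0.143).

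**Figure D2:**
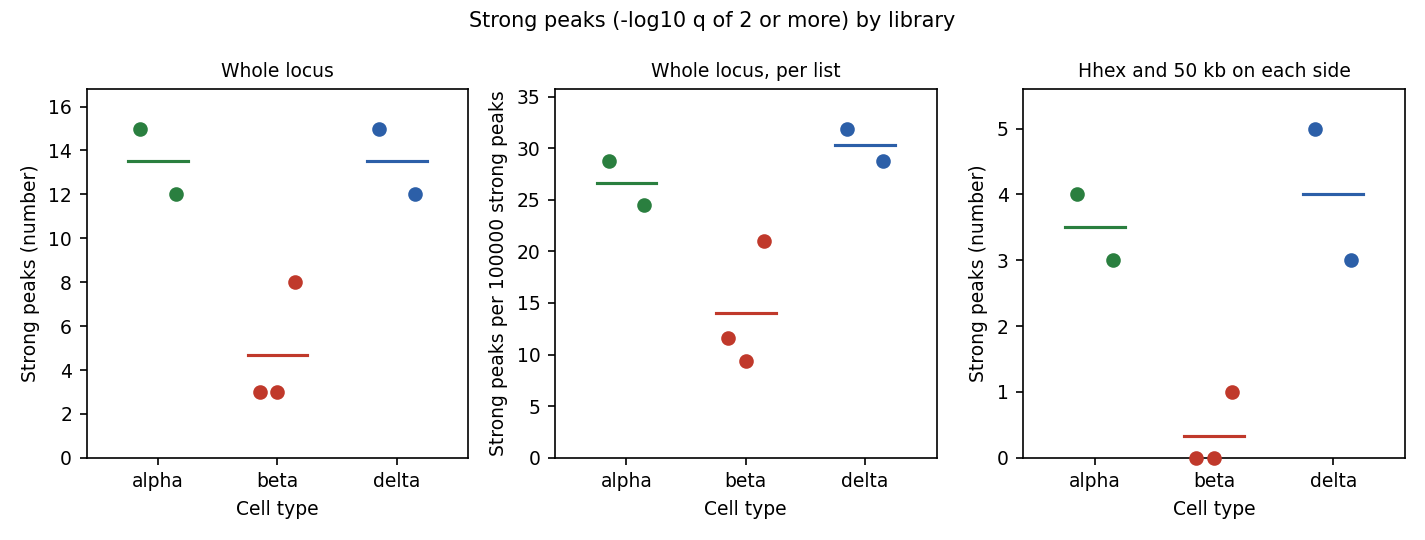
Strong peaks in each library by cell type, as the number in the locus, the number per 100000 strong peaks of the list, and the number in the window of Hhex alone; points are libraries and bars are means. The 3 beta points lie below all alpha and delta points in each panel, at 3 to 8 against 12 to 15 in the number over the locus.

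The 4 windows differ in length, at 169 kb for Ide, 145 kb for Kif11, 106 kb for Hhex, and 234 kb for Exoc6. The window of Hhex, the shortest, held the fewest strong beta peaks. With 50 kb on each side it held 4 and 3 strong peaks in alpha, 0, 0, and 1 in beta, and 5 and 3 in delta libraries, and the exact permutation test of the 3 cell types gave p = 0.0381. The window of Kif11 held 5 and 4 in alpha, 1, 0, and 2 in beta, and 6 and 4 in delta (exact permutation p = 0.0571). That of Exoc6 held 7 and 6 in alpha, 2, 2, and 4 in beta, and 7 and 5 in delta (exact permutation p = 0.0762). That of Ide, where alpha, beta, and delta overlapped, held 4 and 3, 1, 1, and 3, and 3 and 4 (exact permutation p = 0.181). The 4 p-values printed are unadjusted, and after Benjamini-Hochberg adjustment over the 4 windows 0 passed a threshold of 0.05. Neighbouring windows share peaks, so that the peak at the Kif11 promoter counts for both Ide and Kif11. For the Hhex window, the exact permutation p ran from 0.0333 to 0.200 with 1 library left out and was below 0.05 only without delta 2, it was 0.0571 both for the gene body alone and with 100 kb on each side, and it was 0.0556 within lanes. It was 0.0286 with 20 kb on each side and 0.0190 with the 50000 best peaks of each list, again by the exact permutation test. Both of these are unadjusted too, and each became 0.0571 after Benjamini-Hochberg adjustment over the 4 windows. In delta 2, the 50000 best peaks included the one from 37442682 to 37442933, at a tied rank of 49022. The value of 0.0190 can therefore depend on how ties were ordered.

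**Figure D3:**
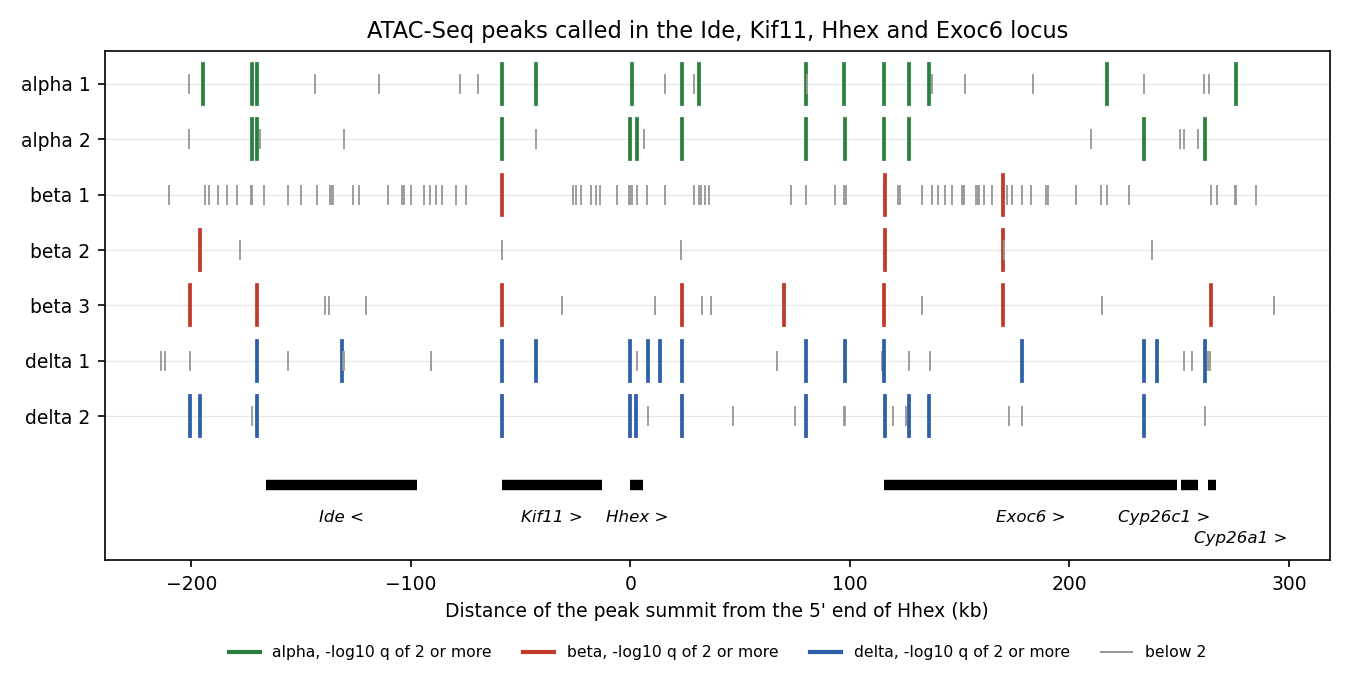
Every peak of the 7 libraries in the locus, by the distance of its summit from the 5' end of Hhex (kb), with tall coloured marks for a −log10 q of at least 2, short grey marks for weaker peaks, and black bars for genes, whose direction is shown by an arrow. Beta 1 carries 84 marks of which 3 are tall, and alpha and delta libraries carry 12 to 15 tall marks each.

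Merging overlapping peaks gave 137 regions, of which 105 were called in 1 library, 63 of these in beta 1, and 32 in at least 2 libraries. Of the 32, 13 were intergenic and 12 intronic, with 8 of the introns in Exoc6, 3 in Ide, and 1 in Kif11. The promoters of Kif11, from 37375978 to 37376641, and of Exoc6, from 37550116 to 37551063, were the 2 regions called in all 7 libraries. In the genome, 13.3% of the regions of at least 2 libraries were called in all 7.

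The regions called in both delta libraries and in no other library were 2 of the 32, against 2.06% in the genome. The one closest to Hhex spans 37442682 to 37442948 and lies 7.87 kb downstream of its 5' end, between genes. In delta 1 it ranked 36023, with a fold enrichment of 4.55 and a −log10 q of 3.39, and in delta 2 it ranked 49022, with a fold enrichment of 3.36 and a −log10 q of 1.93. The other lies in an Exoc6 intron, from 37612958 to 37613226. There the −log10 q was 4.14 in delta 1 and again 1.93 in delta 2. Each was strong in delta 1 only. Beta 1 had a weak peak just beside each without overlapping it, from 37442438 to 37442637 and from 37613268 to 37613467. Both had a −log10 q of 0.0774. A further region of this neighbourhood, 13.2 kb downstream of the 5' end of Hhex from 37447993 to 37448238, was called in delta 1 alone, at a −log10 q of 4.14.

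Another 2 regions were called in both alpha and both delta libraries without any beta library, against 1.43% in the genome, and both lie in Exoc6 introns. From 37668694 to 37669051, the −log10 q was 1.13 and 3.15 in alpha 1 and alpha 2 and of 9.37 and 6.06 in delta 1 and delta 2. The region from 37561532 to 37561904 had 5.81 and 4.24 in alpha and 0.951 and 4.61 in delta. The highest value lay in a delta library in the former and in an alpha library in the latter.

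A region 35.0 kb upstream of Exoc6, from 37514625 to 37515379, had the same pattern among strong peaks. Its −log10 q was 10.2 and 7.97 in alpha and 9.37 and 4.48 in delta libraries, and beta 1 alone of the beta libraries had a peak, at 1.10. Downstream of Hhex, the region from 37457660 to 37458425, 22.9 kb from the 5' end, was the most widely shared one outside a promoter. It was called in 6 libraries, at a −log10 q of 3.30 and 6.73 in alpha, 1.82 and 2.57 in beta 2 and beta 3, and 9.46 and 6.58 in delta. In the exon region of Hhex from 37437509 to 37437917, 2.7 kb into the gene, alpha 2 and both delta libraries had 2.45, 1.45, and 2.82, and beta 1 had 1.10.

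Regions selective for beta cells were 4 of the 32, against 10.7% in the genome, and 1 of them was called in all 3 beta libraries, a pattern found in 0.592% of regions in the genome. This region lies in an Exoc6 intron, 53.7 kb downstream of the 5' end, from 37604122 to 37604860. Its −log10 q was 2.12 in beta 1, 4.66 in beta 2, and 3.84 in beta 3, with fold enrichments of 3.51, 5.47, and 4.82, and ranks of 25027, 12720, and 20480. It was thus strong in all 3 beta libraries, which lie in both lanes, and no alpha or delta library had a peak there. The other 3, in introns of Ide and Exoc6 and at an exon of Cyp26a1, were called in beta 1 and beta 3. At the exon of Cyp26a1, from 37699137 to 37699521, beta 3 had a −log10 q of 3.25 and beta 1 of 1.10. In the introns of Ide, from 37297595 to 37297979, and of Exoc6, from 37567342 to 37567685, beta 3 had 1.43 and beta 1 had 0.0774 in each.

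No region was called in both alpha libraries alone, against 2.42% in the genome. Alpha 1 shared 7 regions with beta 1 and with no other library, against 7.69% in the genome. Of these, 4 were strong in alpha 1, among them its peak at the Hhex promoter, and 0 in beta 1. The best, from 37710489 to 37710719, 12.7 kb downstream of the 5' end of Cyp26a1, was the highest ranked alpha 1 peak of the locus, at 9026, with a −log10 q of 14.8 there and of 0.0774 in beta 1. Alpha 2 had no peak at it.

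**Figure D4:**
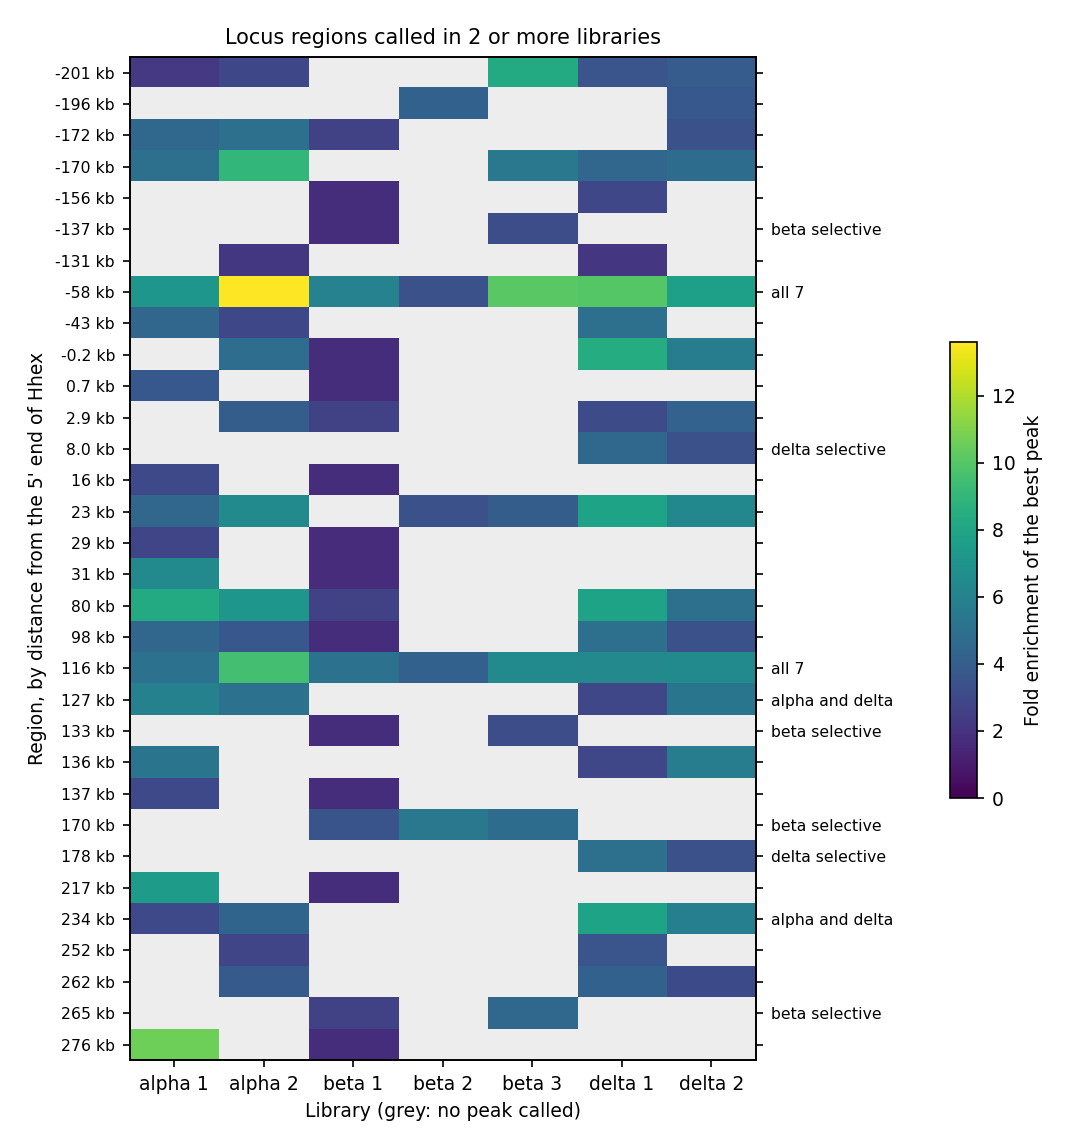
Fold enrichment of the best peak in each of the 32 regions called in at least 2 libraries (rows, by distance from the 5' end of Hhex) in the 7 libraries (columns), with grey where no peak was called and the pattern at the right. The rows of the Kif11 and Exoc6 promoters are filled in all 7 columns, with values from 3.39 to 13.6 and from 4.24 to 9.52, and the row at 170 kb is filled in the 3 beta columns only.

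Pairs of libraries of one cell type shared more regions on average than mixed pairs in each set of peaks counted. Whether this difference passed the test depended on the set. Over the 32 regions, the Jaccard index, the number of regions called in both libraries of a pair over the number called in either, had a mean of 0.398 in the 5 pairs of the same cell type and of 0.314 in the 16 mixed pairs. The difference of 0.0837 gave a one-sided exact permutation p of 0.171. With strong peaks alone the means were 0.465 and 0.294, and their difference of 0.171 gave an exact permutation p of 0.0857. With the 50000 best peaks of each list the difference was 0.202, and the exact permutation p was 0.00952, the smallest the design allows. This last set can depend on how tied peaks near the cutoff were ordered. The 4 pairs of an alpha with a delta library, which are mixed pairs, averaged 0.562 and ranged from 0.407 to 0.750, and this average was not tested. Over the whole genome these 4 pairs ranged from 0.419 to 0.477. Both alpha and both delta libraries called 9 of the 32 regions, and in 6 of the 9 at most 1 beta library had a peak. The share of such regions over the genome was not computed.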

How the data were processed

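Peak lists of 7 ATAC-Seq libraries were used, grouped by the cell type in their labels. The authors trimmed single-end reads (Trimmomatic), aligned them to mm10 with Bowtie 2, leaving out the mitochondrial genome, and flagged duplicates by Picard. After blacklisted regions were taken out, MACS2 called the peaks of each library on its own; versions are not given in the sources used here. Each deposited list gives a score, a fold enrichment (a ratio over local background), and −log10 p and −log10 q values, made by the authors from that library alone. The lowest −log10 p was 2.01 in every list. The authors' read count test through DiffBind could not be run on peak lists.

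Rows repeating an interval were counted once, and an overlap of 1 bp sufficed for membership and for merging. Genes and their 5' ends came from GENCODE vM21, the genome and the RefSeq start of Ide from GRCm38.p6. A region selective for a cell type was called in at least 2 of its libraries and in no library of the others. Selective regions, promoter peaks, and gene lists are counts without a test. Group differences were tested by exact permutation over libraries. The genes named were the members, other protein-coding or long non-coding genes starting in the locus, and the 5 nearest to Hhex in rank pattern; regions named were selective, alpha and delta, all-library, and promoter regions, and others were chosen after their values were seen. Members and lists were chosen with earlier results of these data known. The code was tested on simulated lists. Python 3.11.15, numpy 2.4.6, pandas 2.3.3, and bedtools were used.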

Additional observations from a re-analysis of the deposited data

How the results depend on the processing

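With all peaks in place of strong ones, the delta minus rest difference in the locus turned to −5.00. In the windows of Ide, Kif11, Hhex, and Exoc6 it was −2.90, −3.70, −1.50, and −0.60, as beta 1 held 84 peaks. With the 50000 best peaks of each list, the 3 cell types passed the exact permutation test in the locus peak share and the count (p = 0.0476 for each). With lists of equal length, share and count are the same test in other units. Their delta minus rest differences were 11.2 and 5.60, and for 5.60 the two-sided exact permutation p was 0.143. The similarity passed as well (difference 0.202, one-sided exact permutation p = 0.00952). Tied peaks lay near the cutoff of 50000. In beta 1, locus peaks with a fold enrichment of 2.70 held ranks from 46076 to 46083. In delta 2, those with a −log10 q of 1.93 held ranks from 49022 to 49026. Where ties cross the cutoff, their order decides which peaks count, so results with the 50000 best peaks can depend on it. How far they do was not tested. The 3 cell types also passed the exact permutation test with a flank of 20 kb in the share (p = 0.0476) and with the gene bodies alone in the count (p = 0.0190). There delta minus rest was 6.64 and 3.50, and for 3.50 the two-sided exact permutation p was 0.238. Strong peaks alone gave 1 alpha selective, 1 beta selective, 0 delta selective, 1 alpha and delta, and 1 all-library region. The 50000 best peaks gave 1 alpha selective, 2 beta selective, and 1 alpha and delta region. Requiring a peak to cover 0.5 of the region gave 4 alpha and delta and 0 all-library regions. Promoter peaks of Ide were counted in 1 library within 3 kb and in 3 at any transcript start.

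Leaving out each library in turn gave 0 to 9 alpha selective, 1 to 4 beta selective, 2 to 14 delta selective, 2 to 4 alpha and delta, and 2 to 3 all-library regions, where a cell type left with 1 library needed a peak in that library. The alpha selective count was 5 without alpha 1, 9 without alpha 2, and 1 without delta 1, and the delta selective count was 7 without delta 1 and 14 without delta 2. The beta selective count was 1 without beta 1 or beta 3, and the alpha and delta count 4 without either. The delta minus rest difference ran from 2.98 to 13.7 in the locus peak share, where it was 8.33 with all libraries, and from 3.80 to 7.0 in the strong count; the similarity difference ran from 0.00132 to 0.273. Of 224 alternative values, 192 kept their direction and side of the threshold or stayed close to the main count. Permuting within replicate numbers (a replicate block) gave a 3-group exact permutation p of 0.111 for the strong count and 0.333 for the share. The similarity gave a one-sided exact permutation p of 0.111. For delta against the rest, the difference of 5.30 in the strong count gave a two-sided exact permutation p of 0.556. Across the 6 pairs of the same number, deviations from the group means correlated between −0.0228 and 0.0857. In a group of 2 libraries such deviations mirror each other, so these values cannot tell whether the numbers pair the libraries. Cell types with 2 or 3 libraries and lists without read counts limit what could be tested.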
